A study of Mus musculus with 8 samples.

Results

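The transcripts of 32 genes that carry glucose through the cell were examined in mouse follicular regulatory T (TFR) cells with and without a floxed Blimp1 gene. The genes were listed by their function, with earlier results of these data known, and comprise 2 glucose transporters, 11 genes of upper and 6 of lower glycolysis, 4 genes of lactate formation and export, 2 of pyruvate entry into mitochondria, 3 of the hypoxia-inducible factor HIF-1 and its oxygen sensors, and 4 of the pentose phosphate pathway. All 32 had an entry among the 24421 genes of the deposited count table, and all 32 passed the filter on low counts that left 12363 genes for testing.

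Glycolysis splits glucose into pyruvate in the cytosol, and lactate dehydrogenase can turn that pyruvate into lactate, which leaves the cell through monocarboxylate carriers. The pentose phosphate pathway branches off after the first step and yields NADPH and ribose for biosynthesis. In T cells, HIF-1 and growth signals raise the transcription of many glycolytic genes, and regulatory T cells are known for relying less on glycolysis than activated effector T cells.

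TFR cells express Foxp3, enter B cell follicles and hold germinal centre reactions in check. RNA was sequenced from CD4+ splenic cells sorted as Foxp3-YFP+, CXCR5+ and PD1+, from 4 wildtype (WT) libraries and 4 libraries of mice with Blimp1-flox and Foxp3-cre. Mice of both groups had been given peanut with cholera toxin by mouth, in 2 challenges, and cells were taken on day 36 after them. Foxp3-cre directs deletion to Foxp3-expressing cells in general, so other regulatory T cells of the Blimp1-flox mice carry it too. Whether WT mice carried Foxp3-cre, how many Blimp1 alleles were floxed, the age of the mice and whether each library came from its own mouse are not given in the labels, so the p-values measure the spread between libraries, part of which may be technical.

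The libraries held 16425538 to 27595939 counts. Prdm1, which encodes the transcriptional repressor Blimp1, stood at 31.8 to 71.0 CPM (counts scaled to one common library size) in WT and at 7.53 to 16.6 CPM in Blimp1-flox libraries, and its log2 fold change was -2.14 ± 0.31 (SE; quasi-likelihood test of edgeR with Benjamini-Hochberg adjustment, adjusted p = 0.0203). The markers of the sort were present in every library, with Cxcr5 at 391 to 506 CPM in WT and 475 to 568 CPM in Blimp1-flox. Foxp3 stood at 72.5 to 105 CPM in WT and at 55.7 to 75.5 CPM in Blimp1-flox libraries (edgeR adjusted p = 0.176), and Il2ra, which encodes the IL-2 receptor alpha chain of regulatory T cells, at 81.3 to 121 and 28.1 to 55.4 CPM, without overlap (edgeR adjusted p = 0.0311). On principal components of log2 CPM, WT 4 stood apart on the first (-51.8) and Blimp1-flox 3 on the second (-50.8). WT 4 also held the highest summed B cell markers (2455 CPM against 612 to 1009 CPM in the other WT and 568 to 691 CPM in the Blimp1-flox libraries). Over all tested genes, 62 of 12363 passed an adjusted p under 0.05, which is 0.501%.

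None of the 32 genes passed that threshold in edgeR, yet 30 of 32 had a log2 fold change above 0 for Blimp1-flox against WT, where 50.1% of all tested genes did. Their median log2 fold change was 0.25, against 0.00119 over all tested genes, and single genes ranged from -0.68 (Eno3) to 1.02 (Aldoc). At an unadjusted p under 0.05 in edgeR, 15 members were higher in Blimp1-flox and 2 were lower, against backgrounds of 7.11% higher and 9.05% lower over all tested genes. In 4 members, Aldoc, Pkm, Pdk1 and Pgd, every Blimp1-flox library lay above every WT library (3.75% of all tested genes did so), and in 2, Slc2a3 and Eno3, every Blimp1-flox library lay below (4.72%). Since this is RNA of sorted bulk cells, fewer cells of a type and less RNA per cell cannot be told apart.

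**Figure D1:**
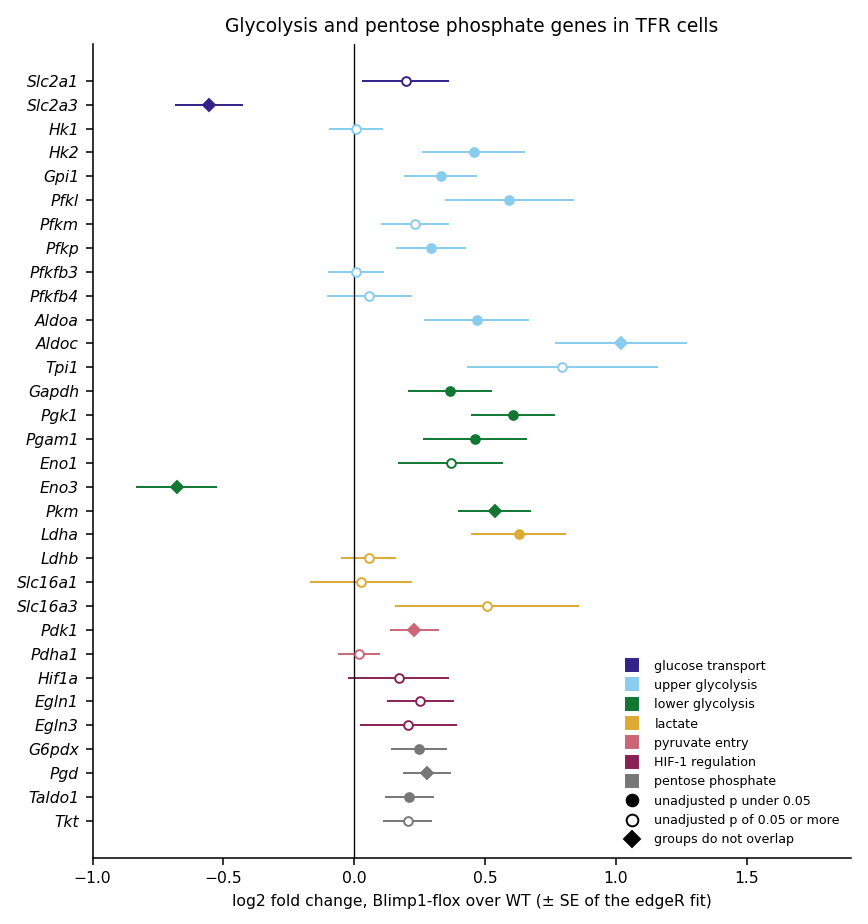
Log2 fold change of each of the 32 genes, Blimp1-flox against WT, with bars of 1 standard error from the edgeR fit, coloured by role; filled circles have an unadjusted p under 0.05, diamonds mark groups that do not overlap, and the vertical line marks 0. All but Slc2a3 (-0.55) and Eno3 (-0.68) lie above 0, and Aldoc lies farthest above it (1.02).

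Whether members were called depended on the choice of test and of libraries. DESeq2 and limma-voom with quality weights each called the same 6 members at an adjusted p under 0.05, Aldoc, Pgk1, Pkm and Ldha as higher and Slc2a3 and Eno3 as lower. Over all tested genes, DESeq2 called 1.56% as higher and 2.1% as lower, and limma-voom 1.72% and 2.27%. In edgeR the smallest adjusted p-values of the members belonged to Eno3 (0.0807) and Slc2a3 (0.0845), the only members under 0.10, where 0.817% of all tested genes were lower. Without WT 4 and Blimp1-flox 3, edgeR called 4 members, Slc2a3 as lower and Pfkl, Aldoc and Pgk1 as higher, with 1.27% of all tested genes called in either direction.

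The 32 genes jointly made up 1.17%, 0.940%, 1.07% and 0.773% of all counts in WT 1 to 4 and 1.39%, 1.23%, 1.12% and 1.40% in Blimp1-flox 1 to 4. The groups overlapped, because WT 1 lay above Blimp1-flox 3. These shares include Eno1 at its listed counts, which are no measure of its level because most of its exon bases also belong to Eno1b. WT 1 was the highest WT library for 23 of the 32 genes and WT 4 the lowest for 22, while Blimp1-flox 3 was the lowest Blimp1-flox library for 20. Other transcripts differed between the same libraries. WT 4 held the most B cell RNA, and Blimp1-flox 3 the highest summed cell cycle genes (2283 CPM against 1518 to 1879 CPM elsewhere). Mpo, a granule enzyme of neutrophil precursors, stood at 24.8, 34.5 and 35.6 CPM in Blimp1-flox 1, 2 and 4, at 0 in Blimp1-flox 3 and at 0 to 0.562 CPM in WT. Summed myeloid markers were 148, 96.8, 27.3 and 153 CPM in Blimp1-flox 1 to 4 and 34.0 to 53.3 CPM in WT, and 11 of the 11 tested had a positive log2 fold change. Pancreas acinar markers, which sorted T cells should lack, summed to 33.3 to 70.3 CPM in WT and 52.1 to 105 CPM in Blimp1-flox, with 13 of 13 positive (median 0.80). Cell cycle genes were positive in 17 of 18 (median 0.37), and 1 was called. Of the B cell markers, 11 of 12 had a negative log2 fold change. With a B cell score in the model, 22 of 32 members had a positive log2 fold change and the median was 0.103. In that model, which calls no gene, the log2 fold change was 0.45 for Aldoc, 0.40 for Pgk1, 0.24 for Pkm and 0.50 for Ldha (1.02, 0.61, 0.54 and 0.63 without the score), 0.34 for Tpi1, 0.11 for Gapdh and 0.03 for Pgam1 (0.80, 0.37 and 0.46), and -0.54 for Slc2a3 and -0.53 for Eno3 (-0.55 and -0.68). The score shares 60.5% of its variance with genotype, so B cell RNA and genotype cannot be told apart in it. The part of myeloid, pancreas and cell cycle RNA in the differences between groups was not tested.

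**Figure D2:**
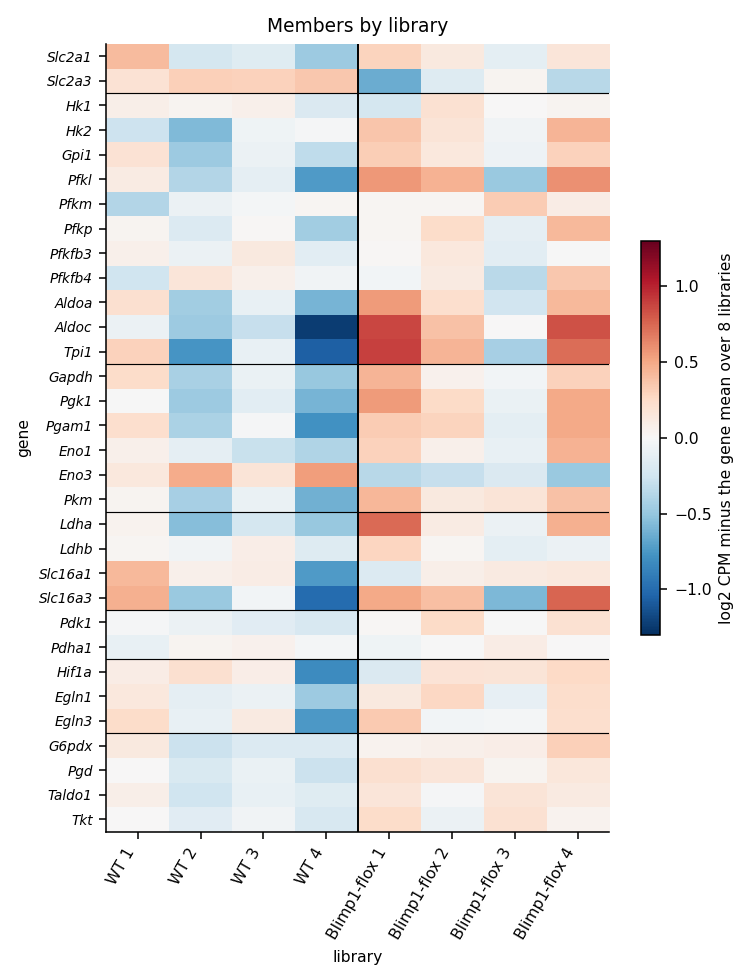
Log2 CPM of the 32 genes in the 8 libraries, each gene centred on its mean over all libraries; columns are libraries by group and replicate, and genes are ordered by role. WT 4 is the lowest WT column for 22 genes and Blimp1-flox 3 the lowest Blimp1-flox column for 20, while Slc2a3 and Eno3 run opposite to most other genes.

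The 2 glucose transporters pointed in opposite directions. Slc2a3 encodes the high-affinity transporter GLUT3 and lies on chromosome 6 from 122727809 to 122742745 on the minus strand of mm10. It stood at 83.0, 90.7, 90.1 and 93.1 CPM in WT and at 46.5, 64.8, 74.8 and 56.7 CPM in Blimp1-flox libraries. WT libraries lay within a narrow band, and all 4 Blimp1-flox libraries were below it. The means were 89.2 ± 4.34 and 60.7 ± 12.0 CPM (SD, n = 4 per group), 1.47-fold lower in Blimp1-flox, and the log2 fold change was -0.55 ± 0.13 (SE; edgeR adjusted p = 0.0845). Slc2a1, which encodes the widely expressed GLUT1, stood at 134, 86.1, 89.99 and 72.6 CPM in WT and at 123, 110.1, 92.3 and 112 CPM in Blimp1-flox libraries. The groups overlapped, with WT 1 the highest of all 8 libraries (log2 fold change 0.20 ± 0.17, SE; edgeR adjusted p = 0.586). Per length of gene, Slc2a1 held 61.4% ± 7.03 of the summed level of both in WT and 73.4% ± 6.19 in Blimp1-flox (SD, n = 4 per group), and these shares overlapped too.

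In upper glycolysis all 11 genes had a positive log2 fold change, from 0.01 (Hk1 and Pfkfb3) to 1.02 (Aldoc). The signs of Hk1 and Pfkfb3 turned in 7 and 5 of 20 alternative settings. At an unadjusted p under 0.05 in edgeR, 6 of the 11 were higher, against 7.11% of all tested genes. Hexokinases trap glucose as its 6-phosphate. Hk1 held 98.7% ± 0.302 of the length-scaled hexokinase level in WT and 98.2% ± 0.392 in Blimp1-flox (SD, n = 4 per group; Hk1 and Hk2 only), and its means of 421 ± 35.4 and 423 ± 49.6 CPM differed by less than the spread within groups. Hk2, the inducible form, stood at 6.54, 5.27, 7.59 and 7.80 CPM in WT and at 10.2, 8.90, 7.62 and 10.7 CPM in Blimp1-flox libraries. Only WT 4 (7.80 CPM) lay above the lowest Blimp1-flox library, and the log2 fold change was 0.46 ± 0.20 (SE; edgeR adjusted p = 0.281). Gpi1, the isomerase that follows, averaged 386 ± 79.6 CPM in WT and 485 ± 58.5 CPM in Blimp1-flox (SD, n = 4 per group; edgeR adjusted p = 0.275).

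Phosphofructokinase commits sugar to glycolysis and is built from 3 kinds of subunit. The liver-type subunit Pfkl stood at 295, 211, 254 and 165 CPM in WT and at 408, 375, 198 and 416 CPM in Blimp1-flox libraries. Blimp1-flox 1, 2 and 4 lay above all WT libraries, whereas Blimp1-flox 3 lay below 3 of them. Its log2 fold change was 0.59 ± 0.25 (SE; edgeR adjusted p = 0.280), and 0.65 with an edgeR adjusted p of 0.0268 without WT 4 and Blimp1-flox 3. With each library left out in turn, the edgeR adjusted p of Pfkl ran from 0.0580 to 0.550. The platelet-type subunit Pfkp averaged 365 ± 53.8 CPM in WT and 447 ± 74.0 CPM in Blimp1-flox, and the muscle-type Pfkm 25.6 ± 3.11 and 30.1 ± 3.10 CPM (SD, n = 4 per group). Of the length-scaled level, Pfkp held 55.4%, Pfkl 39.0% and Pfkm 5.51% in WT, and 51.2%, 43.8% and 4.92% in Blimp1-flox. Each of these shares overlapped between the groups. Pfkfb3 and Pfkfb4 make the fructose bisphosphate signal that activates phosphofructokinase. Neither differed beyond the spread between libraries, at 40.8 ± 3.42 against 41.0 ± 3.16 CPM for Pfkfb3 and 20.3 ± 2.48 against 21.1 ± 4.23 CPM for Pfkfb4 (WT against Blimp1-flox, SD, n = 4 per group).

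Aldolases cleave the 6-carbon sugar. Aldoc, the brain-type aldolase on chromosome 11 (78323073 to 78327778, plus strand, mm10), had the highest log2 fold change of the 32 genes. It stood at 40.5, 30.8, 34.6 and 18.0 CPM in WT and at 78.1, 55.4, 42.8 and 75.6 CPM in Blimp1-flox libraries. Every Blimp1-flox library exceeded every WT library, by the smallest margin between Blimp1-flox 3 and WT 1. The means were 31.0 ± 9.52 and 63.0 ± 16.9 CPM (SD, n = 4 per group), a 2.03-fold difference, and the log2 fold change was 1.02 ± 0.25 (SE; edgeR adjusted p = 0.109; DESeq2 adjusted p = 0.00114). Aldoa, the main aldolase of these cells, stood at 1206, 760.4, 978 and 684 CPM in WT and at 1533, 1210.0, 878 and 1399 CPM in Blimp1-flox libraries. Its groups overlapped through Blimp1-flox 3 (log2 fold change 0.47 ± 0.20, SE; edgeR adjusted p = 0.284). Aldoc held 1.65% to 2.51% of the length-scaled level of both aldolases in WT and 2.83% to 3.32% in Blimp1-flox, without overlap.

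Tpi1 interconverts the triose phosphates and varied most within groups. It stood at 434, 207, 329 and 169 CPM in WT and at 652, 481, 262 and 584 CPM in Blimp1-flox libraries. Blimp1-flox 3 lay below WT 1 and WT 3, and the log2 fold change of 0.80 ± 0.37 (SE) had an edgeR adjusted p of 0.335. Exons of Tpi1 share 25 bases with Spsb2 on the opposite strand, those of Pfkp 276 bases with Pitrm1, and those of Pdha1 603 bases with Map3k15, so their counts may hold reads of the partner if strand was not used in counting. Listed gene copies held few counts over all libraries, with 375 for Aldoart1 and 87 for Aldoart2 against 199659 for Aldoa, 21 for G6pd2 against 19467 for G6pdx and 1 for Pgk2 against 21646 for Pgk1. How reads that match a gene and a copy equally were counted is not given in the sources used here.

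**Figure D3:**
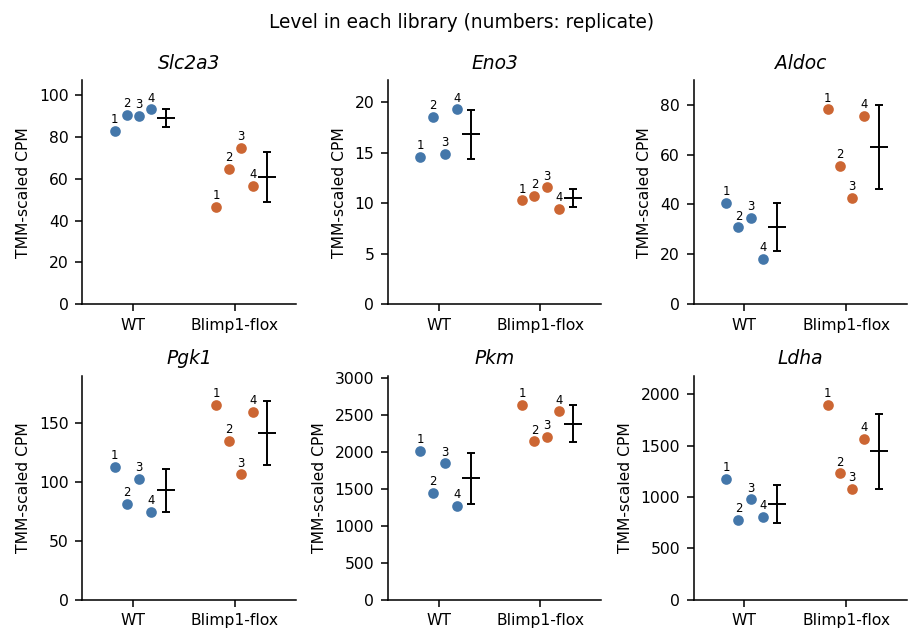
TMM-scaled CPM of Slc2a3, Eno3, Aldoc, Pgk1, Pkm and Ldha on linear axes from 0; points are the 4 WT and 4 Blimp1-flox libraries with their replicate numbers, and the horizontal line with bars beside them is the mean ± SD. In Aldoc and Pkm all Blimp1-flox points lie above all WT points, in Slc2a3 and Eno3 all lie below, and in Pgk1 and Ldha WT 1 lies above Blimp1-flox 3.

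Of the 6 genes of lower glycolysis, 5 had a positive log2 fold change and 4 of these had an unadjusted p under 0.05 in edgeR, as did Eno3 in the negative direction. Over all tested genes, 7.11% were higher and 9.05% lower at that threshold. The 5 include Eno1, whose listed counts are no measure of its level. Gapdh, which makes the first NADH of the pathway, stood at 1409, 896, 1127 and 851 CPM in WT and at 1627, 1249, 1166 and 1478 CPM in Blimp1-flox libraries. Only WT 1 overlapped with the Blimp1-flox libraries, and the log2 fold change was 0.37 ± 0.16 (SE; edgeR adjusted p = 0.289). Gapdh is widely used as a reference transcript in quantitative PCR.

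Pgk1, the first ATP-forming kinase of the pathway, lies on the X chromosome (106187100 to 106203699, plus strand, mm10). It stood at 113, 81.3, 103 and 74.2 CPM in WT and at 165, 135, 106 and 159 CPM in Blimp1-flox libraries. The groups met only where WT 1 exceeded Blimp1-flox 3. The means were 92.7 ± 18.0 and 141 ± 26.8 CPM (SD, n = 4 per group), and the log2 fold change was 0.61 ± 0.16 (SE; edgeR adjusted p = 0.112; DESeq2 adjusted p = 0.0110). With each library left out in turn, it ranged from 0.51 to 0.72 and the edgeR adjusted p from 0.0472 (without Blimp1-flox 3, the library nearest to WT) to 0.348 (without Blimp1-flox 4). Pgam1, the phosphoglycerate mutase, averaged 47.8 ± 14.1 CPM in WT and 65.8 ± 11.2 CPM in Blimp1-flox (SD, n = 4 per group; edgeR adjusted p = 0.285).

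Pkm encodes the pyruvate kinase that forms the second ATP and lies on chromosome 9 (59656368 to 59679375, plus strand, mm10). It stood at 2006, 1444, 1840.3 and 1265 CPM in WT and at 2633, 2140.4, 2196 and 2544 CPM in Blimp1-flox libraries. All Blimp1-flox libraries lay above all WT libraries, Blimp1-flox 3 included. The means were 1639 ± 343 and 2378 ± 246 CPM (SD, n = 4 per group), and the log2 fold change was 0.54 ± 0.14 (SE; edgeR adjusted p = 0.109; DESeq2 adjusted p = 0.00950). With each library left out in turn, it ranged from 0.43 to 0.65 and the edgeR adjusted p from 0.0469 (without WT 1, the WT library nearest to Blimp1-flox) to 0.336 (without Blimp1-flox 4). Counts per gene do not tell the M1 and M2 splice forms of pyruvate kinase apart.

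Enolases form phosphoenolpyruvate, and the gene names here need care. Eno3, the muscle-type enolase on chromosome 11 (70657176 to 70662513, plus strand, mm10), stood at 14.6, 18.5, 14.9 and 19.3 CPM in WT and at 10.3, 10.7, 11.6 and 9.46 CPM in Blimp1-flox libraries. The Blimp1-flox libraries sat close together below all WT libraries. It was 1.6-fold lower, and its log2 fold change was -0.68 ± 0.15 (SE; edgeR adjusted p = 0.0807; DESeq2 adjusted p = 0.00361). Eno1, the ubiquitous form, shares 1649 of its 1776 exon bases (92.8%) with Eno1b on the same strand, and only 127 bases are its own. Its listed 6.24 ± 0.900 CPM in WT and 8.07 ± 1.36 CPM in Blimp1-flox (SD, n = 4 per group) are therefore no measure of its level, and reads that lie in both genes may have been dropped or given to either.

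Pyruvate that becomes lactate passes through lactate dehydrogenase, a tetramer of A and B subunits. Ldha, on chromosome 7 (46845804 to 46855627, plus strand, mm10), stood at 1178, 774, 976 and 807 CPM in WT and at 1897, 1230.5, 1079 and 1569 CPM in Blimp1-flox libraries. The overlap lay between WT 1 and Blimp1-flox 3. The means were 934 ± 186 and 1444 ± 365 CPM (SD, n = 4 per group), and the log2 fold change was 0.63 ± 0.18 (SE; edgeR adjusted p = 0.153; DESeq2 adjusted p = 0.0140). Ldhb, at 147 ± 10.9 CPM in WT and 153 ± 20.1 CPM in Blimp1-flox (SD, n = 4 per group), differed by less than its spread. Per length, Ldha held 84.0%, 78.3%, 80.7% and 80.4% of the lactate dehydrogenase level in WT and 87.6%, 84.6%, 84.3% and 88.3% in Blimp1-flox libraries. These shares did not overlap, although the CPM of Ldha did.

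Lactate leaves through the carriers MCT1 and MCT4. Slc16a3, which encodes MCT4, stood at 72.3, 37.5, 51.3 and 26.3 CPM in WT and at 74.2, 68.7, 35.1 and 88.6 CPM in Blimp1-flox libraries. WT 1 and Blimp1-flox 3 each lay among the libraries of the other group (log2 fold change 0.51 ± 0.35, SE; edgeR adjusted p = 0.512). Slc16a1, which encodes MCT1, averaged 54.9 ± 16.6 CPM in WT and 55.8 ± 5.39 CPM in Blimp1-flox (SD, n = 4 per group), with WT 4 lowest at 32.4 CPM.

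**Figure D4:**
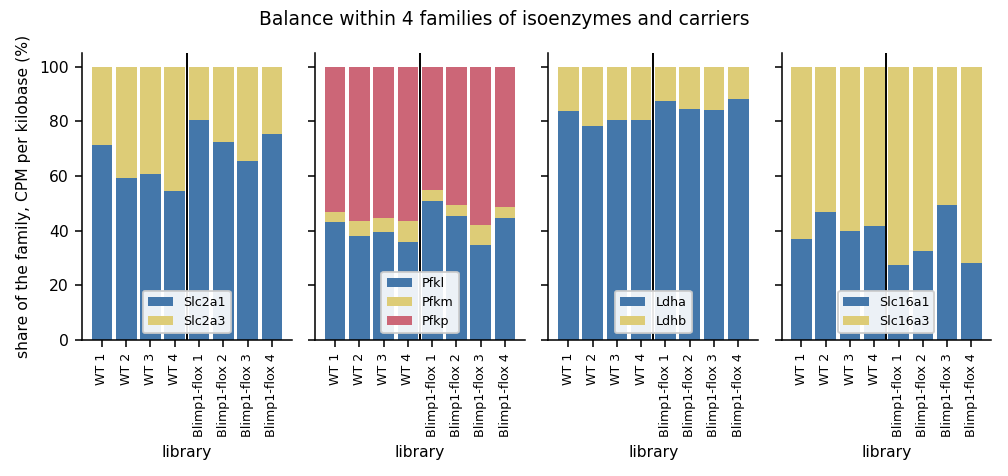
Stacked bars of the share (percent of CPM per kb) that each member holds of 4 families, glucose transporters, phosphofructokinase, lactate dehydrogenase and lactate carriers, with 1 bar for each WT and Blimp1-flox library. The share of Ldha lies between 78.3% and 84.0% in WT and between 84.3% and 88.3% in Blimp1-flox libraries, whereas the groups overlap in the other 3 families.

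Over 8 families of 2 or 3 members, the shares of aldolase and lactate dehydrogenase did not overlap between groups, with length-scaled or with raw counts. Enolase shares did not overlap either, but they rest on the listed level of Eno1 and are not read here. No test was made on these shares.

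Pyruvate enters mitochondria through pyruvate dehydrogenase, which Pdk1 switches off by phosphorylation. Pdk1 stood at 102, 97.9, 92.9 and 89.1 CPM in WT and at 104, 123, 103 and 119 CPM in Blimp1-flox libraries. The groups did not overlap, but the nearest libraries, WT 1 and Blimp1-flox 3, were almost equal (log2 fold change 0.23 ± 0.09, SE; edgeR adjusted p = 0.262). Pdha1, the catalytic subunit that Pdk1 phosphorylates, was among the steadiest members, at 144 ± 6.72 CPM in WT and 146 ± 6.16 CPM in Blimp1-flox (SD, n = 4 per group).

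Hif1a encodes the oxygen-regulated subunit of HIF-1, whose activity is set mostly by protein stability. It stood at 2260.2, 2447, 2247 and 1202 CPM in WT and at 1855, 2401, 2383 and 2539 CPM in Blimp1-flox libraries. WT 4 was far below all other libraries, and the other 3 WT libraries lay inside the range of the Blimp1-flox libraries. The log2 fold change was 0.17 ± 0.19 (SE; edgeR adjusted p = 0.702) and turned to -0.01 without WT 4. Egln1 and Egln3 encode prolyl hydroxylases that mark HIF-1 for degradation. Egln1 averaged 107 ± 18.1 CPM in WT and 127 ± 14.0 CPM in Blimp1-flox, and Egln3 33.3 ± 9.06 and 38.5 ± 4.93 CPM (SD, n = 4 per group; edgeR adjusted p = 0.353 and 0.609).

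All 4 pentose phosphate genes had a positive log2 fold change, between 0.20 and 0.28. At an unadjusted p under 0.05 in edgeR, 3 were higher, against 7.11% of all tested genes. Pgd, the second NADPH-forming enzyme, lies on chromosome 4 (149149985 to 149166707, minus strand, mm10). It stood at 104, 90.2, 97.5 and 85.6 CPM in WT and at 120.1, 116, 107 and 115 CPM in Blimp1-flox libraries. The groups did not overlap (log2 fold change 0.28 ± 0.09, SE; edgeR adjusted p = 0.184). G6pdx, which encodes the rate-limiting glucose 6-phosphate dehydrogenase, stood at 112, 83.8, 90.4 and 90.2 CPM in WT and at 106, 107, 108 and 126 CPM in Blimp1-flox libraries. Apart from WT 1, WT libraries lay below the Blimp1-flox libraries, and the edgeR adjusted p was 0.283. The enzymes of the non-oxidative branch were close to these, with Taldo1 (transaldolase) at 162 ± 16.04 and 187 ± 10.9 CPM and Tkt (transketolase) at 185 ± 12.2 and 213 ± 21.2 CPM in WT and Blimp1-flox (SD, n = 4 per group; edgeR adjusted p = 0.290 and 0.311).

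By level per length in WT, Gapdh (716 ± 171 CPM per kb), Pkm (631 ± 132), Aldoa (497 ± 129) and Ldha (484 ± 96.2) came highest among the 32 genes, followed by Hif1a (428 ± 119) and Tpi1 (178 ± 75.6; SD, n = 4). From Gapdh to Hif1a, the WT libraries of each neighbour in this order overlapped with those of the next. Among all tested genes, the level per length averaged over all 8 libraries of both groups put Gapdh at percentile 99.8 and Hif1a at percentile 99.2. Hk2 was the lowest, at 1.23 CPM per kb in WT and, over all 8 libraries, at percentile 18.1. The place of Eno1 in this order is not read, since its listed counts are no measure of its level.

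Many members, though not all, varied together within groups. Tpi1, the member with the widest spread within groups, served as the reference, and likeness was Pearson's r of log2 CPM over the 8 libraries after each group's mean was removed, given as a description. Of the other 31 members, 14 had r above 0.8 (45.2%), against 723 of 12362 other tested genes (5.85%), and the median r was 0.78 against 0.02. High likeness was not particular to the members, since 7 of 17 HIF-1 target genes outside glycolysis also had r above 0.8. The highest were Aldoa (0.996), Pgk1 (0.991), Slc16a3 (0.97), Pgd and Pfkl (both 0.96) and Pgam1 (0.94). Eno3 (-0.90), Pfkm (-0.84), Slc2a3 (-0.76) and Pdha1 (-0.66) ran the opposite way, so the 2 members that were lower in Blimp1-flox also tended to be low, within a group, where Tpi1 was high. Hk1 (0.18), Pfkfb4 (0.22), Tkt (0.30) and Hif1a (0.31) had little in common with Tpi1. All these values share the same 8 libraries, in which Tpi1 was highest for its group in WT 1 and Blimp1-flox 1 and lowest in WT 4 and Blimp1-flox 3. WT 4 and Blimp1-flox 3 are the libraries that stood apart on the principal components, and their part in these values was not tested.

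**Figure D5:**
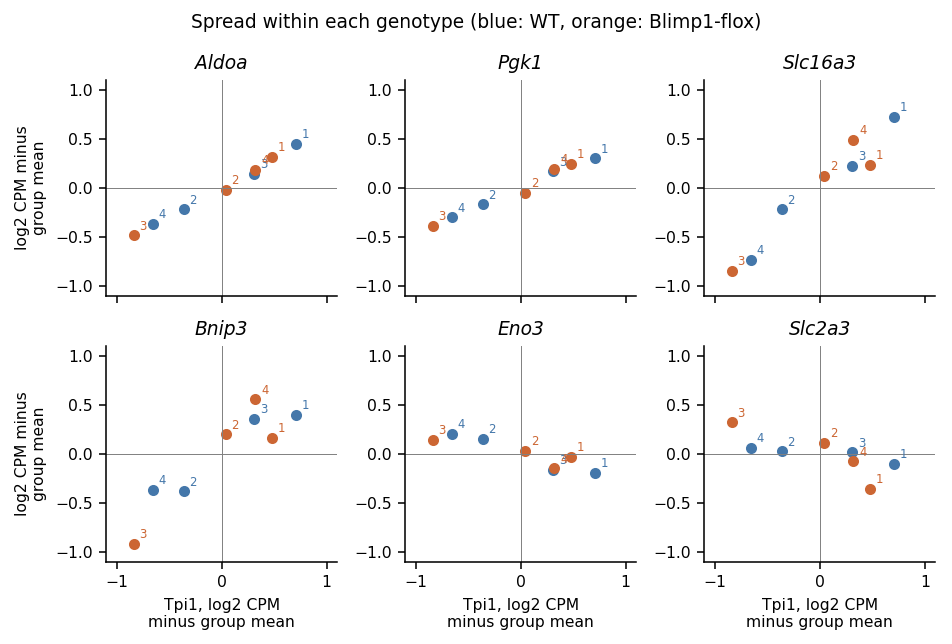
Log2 CPM of Aldoa, Pgk1, Slc16a3, Bnip3, Eno3 and Slc2a3 after removal of each group's mean (vertical axes), plotted against that of Tpi1 (horizontal axes), with 1 numbered point for each of the 8 libraries (blue WT, orange Blimp1-flox). Aldoa and Pgk1 follow Tpi1 closely (r of 0.996 and 0.991), whereas Eno3 runs opposite to it (r of -0.90).

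The DNA upstream of 4 members is shown to let their sequence be compared. Ldha and Pgk1 are classical HIF-1 targets with positive log2 fold changes, though their groups overlapped. Aldoc was highest by fold, and Eno3 had a negative log2 fold change. Each run is the 250 bases upstream of the most upstream start in RefSeq (GRCm38.p6, the assembly behind mm10), 5′ to 3′ on the plus strand. Capitals mark the core of the hypoxia response element, ACGTG on either strand, which reads CACGT where it lies on the opposite strand and merges with a second match in the E-box CACGTG.
Ldha (chr7:46845554-46845803): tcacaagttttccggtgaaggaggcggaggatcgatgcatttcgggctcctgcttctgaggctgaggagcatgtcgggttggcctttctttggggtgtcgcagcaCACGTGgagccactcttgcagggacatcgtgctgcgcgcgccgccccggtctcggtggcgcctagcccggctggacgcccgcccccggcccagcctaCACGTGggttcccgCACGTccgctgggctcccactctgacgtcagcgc
Pgk1 (chrX:106186850-106187099): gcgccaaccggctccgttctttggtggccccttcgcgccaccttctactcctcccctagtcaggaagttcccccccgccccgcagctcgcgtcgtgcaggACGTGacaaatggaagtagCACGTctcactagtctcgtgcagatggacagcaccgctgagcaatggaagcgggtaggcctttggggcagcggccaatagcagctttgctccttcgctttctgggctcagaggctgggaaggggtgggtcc
Aldoc (chr11:78322823-78323072): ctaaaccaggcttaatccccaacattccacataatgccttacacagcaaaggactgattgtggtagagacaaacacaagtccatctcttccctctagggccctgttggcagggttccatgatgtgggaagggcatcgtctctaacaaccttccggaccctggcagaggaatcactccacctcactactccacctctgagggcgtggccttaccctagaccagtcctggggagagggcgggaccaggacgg
Eno3 (chr11:70656926-70657175): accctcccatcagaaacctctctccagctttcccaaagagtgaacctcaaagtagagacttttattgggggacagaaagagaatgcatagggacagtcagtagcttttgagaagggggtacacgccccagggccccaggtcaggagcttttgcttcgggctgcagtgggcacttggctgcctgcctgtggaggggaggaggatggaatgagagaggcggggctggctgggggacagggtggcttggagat

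Ldha held 5 matches to ACGTG on both strands together, 4 of them from 2 E-boxes, and Pgk1 held 2, while Aldoc and Eno3 held 0. Matches did not follow the fold changes throughout. Pkm, Aldoa, Tpi1, Gapdh, Pfkl and Pgd, all with positive log2 fold changes, also held 0. Hif1a held 3 and Slc16a1 and Pfkm 2 each, at log2 fold changes of 0.17, 0.03 and 0.23. Hk2 and Slc16a3 (0.46 and 0.51) held 2 each. Upstream sequence was found for 31 of the 32 genes (Slc2a3 had none in the table). ACGTG occurred in 12 of these 31 (38.7%), against 22.2% of the 9440 tested genes with a sequence of the same length. CACGTG, which always contains ACGTG, occurred in 12.9% against 8.53%. GAAAG, the core of the Blimp1 binding motif, occurred on either strand in 13 of 31 (41.9%) against 47.4%. Of the 4 genes shown, Eno3 held 2 matches, Ldha and Pgk1 1 each and Aldoc 0. The RefSeq starts differ from the deposited gene limits for some members. The runs of Slc16a3 (2 matches to ACGTG), Gapdh and G6pdx lie within the deposited genes, and those of Tpi1, Pkm and Pgd do so in part. Which starts these cells use was not tested. A match is a run of letters and no evidence of binding.

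Around these members, 95 further genes of glucose metabolism and oxygen sensing were listed by function, of which 79 were tested. None passed an adjusted p under 0.05 in edgeR. At an unadjusted p under 0.05 in edgeR, 12 were higher and 4 lower in Blimp1-flox, where 7.11% of all tested genes were higher and 9.05% lower. Of the 79, 48 (60.8%) had a positive log2 fold change, against 50.1% of all tested genes. Their median was 0.11, against 0.00119. The lists did not all lean the same way. Of HIF-1 target genes outside glycolysis, 12 of 17 were positive (median 0.24), of other pentose phosphate genes 7 of 9, and of genes of glucose sensing and growth control 5 of 16 (median -0.07).

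Among the other carriers, Slc2a6, a lysosomal hexose transporter, stood at 61.2, 46.7, 64.0 and 29.4 CPM in WT and at 108, 86.9, 73.1 and 94.7 CPM in Blimp1-flox libraries. All Blimp1-flox libraries were above all WT libraries, and the log2 fold change was 0.85 ± 0.22 (SE; edgeR adjusted p = 0.112; DESeq2 adjusted p = 0.00326). The lowest of that list was Slc16a7, at -0.34 ± 1.05 (SE) and under 1 CPM in every library. Of the other glycolytic enzymes, Galk1 (galactokinase) was highest at 0.55 ± 0.14 and Pfkfb2 lowest at -0.36 ± 0.22 (SE; edgeR adjusted p = 0.111 and 0.439). Pgm2, of the same list, averaged 103 ± 15.5 CPM in WT and 140.5 ± 11.3 CPM in Blimp1-flox (SD, n = 4 per group; edgeR adjusted p = 0.103). DESeq2 and limma-voom each called 3 of the 79 genes as higher, Slc2a6, Pgm2 and Galk1. Over all tested genes they called 1.56% and 1.72% as higher.

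In the remaining lists the ends were Pdk3 (0.29) and Pdp1 (-0.08) for pyruvate dehydrogenase, Rpia (0.42) and H6pd (-0.13) for the pentose phosphate pathway, and Hif3a (0.32) and Epas1 (-0.63) for oxygen sensing, all log2 fold changes with edgeR adjusted p above 0.05. Bnip3, a mitophagy receptor and HIF-1 target, stood at 19.3, 11.2, 18.8 and 11.4 CPM in WT and at 26.4, 27.1, 12.4 and 34.7 CPM in Blimp1-flox libraries. It varied with Tpi1 within groups (r of 0.91), though the order of the libraries was not the same. Its log2 fold change was 0.73 ± 0.29 (SE; edgeR adjusted p = 0.265). Adm, at the low end of the HIF-1 targets, was under 3 CPM in every library (-1.46 ± 0.66, SE; edgeR adjusted p = 0.300). Txnip, which encodes an inhibitor of glucose uptake, stood at 157, 146, 144 and 150.2 CPM in WT and at 125, 108, 142 and 106 CPM in Blimp1-flox libraries. Its groups did not overlap, though Blimp1-flox 3 nearly reached the lowest WT library (-0.32 ± 0.10, SE; edgeR adjusted p = 0.184; limma-voom adjusted p = 0.0264). At the ends of its list stood Mlxipl (0.57 ± 0.69) and Myc (-0.44 ± 0.25, SE; edgeR adjusted p = 0.720 and 0.409), and Myc was highest in WT 4 and Blimp1-flox 3, at 179 and 144 CPM.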

How the data were processed

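The authors deposited raw counts for each gene, made with STAR 2.5.2b, mm10 and featureCounts from Subread 1.5.1, as the submitters' processing notes list them. Libraries were made with a KAPA mRNA kit, per the labels. Gene annotation and strand setting are not given in the sources used here. The deposited gene length in bases, a value of another kind, was used to scale levels per kb.

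In edgeR 4.0.16 (R 4.3.3), genes were kept by filterByExpr, scaled by TMM and tested with the robust quasi-likelihood F test on genotype alone, with Benjamini-Hochberg adjustment over 12363 genes. Genes were called at an adjusted p under 0.05, and standard errors come from the F statistic. CPM are TMM-scaled, and log2 CPM used a prior count of 2. The biological coefficient of variation was 0.192.

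Alternatives were other scalings and filters, DESeq2 1.42.0, limma 3.58.1 (voom with quality weights), a replicate block, libraries left out, a B cell score and removal of trends in gene length and mean level. All 32 members are accounted for. Of the other lists, called genes and the highest and lowest tested gene were to be named; Pgm2 and Txnip were added because another test called them. Members and lists were chosen with earlier results of these data known.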

Additional observations from a re-analysis of the deposited data

Results flagged for a closer look

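In groups of 4 libraries, a library was singled out when its gap to the nearest other library, divided by the range of the group, exceeded Dixon's critical value at the 95% level. This was applied to the 32 genes in both groups, 64 groups in all, of which chance alone singles out about 1 in 20, and it singled out 2. Hif1a stood at 1202 CPM in WT 4, with the nearest WT library at 2247 CPM (ratio 0.839). G6pdx stood at 126 CPM in Blimp1-flox 4, with the nearest Blimp1-flox library at 108 CPM (ratio 0.876).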

How the results depend on the processing

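The members' median log2 fold change of 0.25 stayed positive under every alternative, from 0.103 with a B cell score as covariate to 0.344. Of 640 values of single members under alternatives, 589 kept their direction and side of the threshold, 19 passed it and 32 turned sign. Over all tested genes, 62 were called in edgeR, against 453 with DESeq2, 494 with limma-voom, 182 at an adjusted p under 0.10, 157 without WT 4 and Blimp1-flox 3, 20 to 127 with 1 library left out, and 0 with the B cell score (812 at an unadjusted p under 0.05). Members called numbered 0 in edgeR, 6 with DESeq2 and with limma-voom, 4 without both libraries, 2 at an adjusted p under 0.10, and 0 to 2 with 1 library left out (Pkm without WT 1; Slc2a3 and Pgk1 without Blimp1-flox 3). Other pathway genes called numbered 0, 3 with DESeq2, 4 with limma-voom, 1 without both libraries and 0 to 1 with 1 left out. Members without overlap numbered 6, against 7 with RLE scaling (Pfkm added; 8.38% of all genes), 14 without both libraries (19.1% of all genes) and 6 to 14 with 1 left out (14 without WT 1 and 13 without Blimp1-flox 3, with 16.2% and 14.5% of all genes), so leaving libraries out raised the share over all genes too.

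Signs turned in the following. With limma-voom they were Hk1 (-0.0125), Pfkfb3 (-0.0304), Ldhb (-0.0364) and Pdha1 (-0.00742). Without both libraries they were Hk1 (-0.0503), Slc16a1 (-0.185), Pdha1 (-0.0153) and Hif1a (-0.0341). With the B cell score they were Slc2a1 (-0.139), Hk1 (-0.155), Pfkfb3 (-0.0393), Slc16a1 (-0.642), Slc16a3 (-0.0829), Hif1a (-0.494), Egln1 (-0.0313) and Egln3 (-0.309). Removal of a length trend turned Ldhb (-0.0162) and of a trend in mean level Hk1 (-0.00190). With 1 library left out, log2 fold changes ranged from -0.0621 to 0.171 for Pfkfb4, -0.0120 to 0.0383 for Pdha1, -0.0426 to 0.0530 for Pfkfb3, -0.0626 to 0.0768 for Hk1, -0.160 to 0.190 for Slc16a1, -0.0146 to 0.270 for Hif1a and -0.0382 to 0.106 for Ldhb. The cause was not tested.

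Same-numbered libraries showed no common direction in their deviations from the group means (r = 0.1, 0.153, -0.102 and -0.108). The labels do not say whether they were paired, and with 4 libraries per group these values cannot decide it. With the replicate block 52 genes were called, 37 of them among the 62, and 0 members, with a median of 0.258.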
